A study of Mus musculus with 6 samples.

Results

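Cell cycle genes were followed in natural killer (NK) cells of the mouse spleen, sorted by which Ly49 receptor they carried. A list of 58 genes of DNA replication, mitosis and the cyclins was matched by symbol to the gene numbers of the deposited table, and 48 of the 58 were among its 8520 genes. Of the 48, 25 belong to mitosis, 18 to S phase (DNA replication and the chromatin copied with it) and 5 are cyclins and cyclin-dependent kinases of the G1 phase. Both populations came from spleens of 20 C57BL/6Ncr mice aged 6 to 8 weeks and were CD3-negative and NK1.1-positive, and the labels name no treatment. The Ly49G+ population was Ly49G-positive and Ly49C/I-negative, the Ly49I+ population was Ly49G-negative and Ly49C/I-positive, and each gave 3 libraries. The labels call the libraries biological replicates without saying how mice were shared among them, and every p here reflects the variation among these 6 libraries. RNA was pooled over all cells of a library, so more dividing cells and more RNA per dividing cell cannot be told apart.

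A dividing cell first commits in G1, when D cyclins activate Cdk4 and Cdk6 and release E2F factors, which turn on the genes that copy DNA. Mitotic genes follow later under factors that bind CCAAT boxes and a promoter element called the cell cycle homology region. Most NK cells of a resting spleen are out of cycle, and the cells that divide are mainly at the immature, CD27+ stage.

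The classes had different letters around the starts of their genes, and 4 stretches upstream of annotated starts are given as examples. Promoter sequences were those of RefSeq for GRCm38.p6, from 250 bases before to 50 after each start, and 40 of the 48 genes had one. The letters searched on both strands were CCAAT for the CCAAT box, TTTGAA for the cell cycle homology region, and TTTCCCGC, TTTGGCGC, TTTCGCGC or TTTGCCGC for an E2F site, and matches of the last group may overlap. Mki67 and Top2a are shown as mitosis genes past the test, Kif11 as a mitotic motor with an element next to its start, and Mcm6 as a replication gene. Capitals mark every match, each line reads 5′ to 3′ on the strand of the gene, and bases inside annotated exons or genes were left out.

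Mki67 (chr7:135716451-135716529, minus strand): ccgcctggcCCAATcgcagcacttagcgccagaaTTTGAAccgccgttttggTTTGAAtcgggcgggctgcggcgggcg
Top2a (chr11:99024200-99024339, minus strand): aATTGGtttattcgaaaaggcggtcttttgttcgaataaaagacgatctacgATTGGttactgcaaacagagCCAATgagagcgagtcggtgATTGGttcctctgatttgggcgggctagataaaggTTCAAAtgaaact
Kif11 (chr19:37376232-37376381, plus strand): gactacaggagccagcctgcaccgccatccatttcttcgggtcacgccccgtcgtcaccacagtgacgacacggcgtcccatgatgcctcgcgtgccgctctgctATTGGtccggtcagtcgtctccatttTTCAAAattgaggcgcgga
Mcm6 (chr1:128359706-128359855, minus strand): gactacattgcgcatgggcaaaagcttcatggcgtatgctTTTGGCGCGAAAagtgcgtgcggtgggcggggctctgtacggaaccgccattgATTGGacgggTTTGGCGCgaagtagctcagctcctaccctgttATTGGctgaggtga

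The Mki67 stretch held 1 CCAAT box and 2 cell cycle homology letters, that of Top2a 4 and 1, and that of Kif11 1 and 1, with no E2F letters in any of them. The Mcm6 stretch held 3 E2F matches and 2 CCAAT boxes and no cell cycle homology letters. Over the full windows, 17 of 20 mitosis genes with a promoter (85.0%) held the cell cycle homology letters, 15 of them within 50 bases of a start, against 2 of 16 S phase genes (12.5%) and 14.3% of the 6842 measured genes with a promoter. The homology matches within 50 bases lay on either side of the start, after it in Cenpf, Kif4 and Hmmr among others. E2F letters stood in 9 of 16 S phase genes (56.2%), 3 of 20 mitosis genes and 5.3% of measured genes. CCAAT letters were in 75.0% of the mitosis genes, 68.8% of the S phase genes and 42.9% of measured genes. Of the 3 mitosis genes past the test that had a promoter, 2 held the homology letters, and 15 of 17 mitosis genes not past it did. A match is a string of letters, not a measured binding site.

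**Figure D1:**
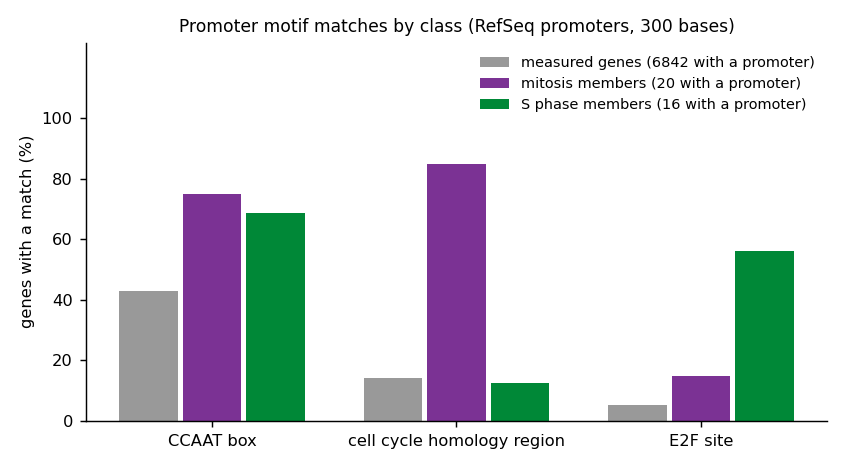
Percentage of genes with at least 1 match (vertical axis) for each promoter motif, in all measured genes (grey), mitosis genes (purple) and S phase genes (green), over RefSeq promoters of 300 bases. The cell cycle homology region was matched in 85.0% of mitosis genes and the E2F site in 56.2% of S phase genes, against 14.3% and 5.3% of measured genes.

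RNA of mitosis genes was higher in Ly49G+ than in Ly49I+ cells in 5 of 25, lower in 0, and 20 did not pass. The test was limma on log2 CPM (reads of a gene scaled to the library total) with p adjusted over 8520 genes, and a gene was called under an adjusted p of 0.05. No S phase gene of 18 was called in either direction, and 1 of the 5 G1 genes, Cdk6, was higher in Ly49G+. Together 6 of the 48 were called with Ly49G+ higher, where 1.82% of all genes were, and 0 with Ly49I+ higher, where 1.77% of all genes were. Without adjustment, p was under 0.05 with Ly49G+ higher for 16 of 25 mitosis genes, 2 of 18 S phase genes and Cdk6, where 9.59% of all genes were, so the S phase count was near the share of all genes. It was under 0.05 with Ly49I+ higher for 1 of the 48, Ccnd3, where 10.2% of all genes were. Of the 16, Birc5 and Kif4 reached the lowest level the table lists in at least 2 libraries of Ly49G+ but not of Ly49I+. The called genes were 1.34- to 1.54-fold higher, so all these differences were small.

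With the replicate number as a block, which pairs Ly49G+ and Ly49I+ libraries of the same number, 13 of 25 mitosis genes, 1 of 18 S phase genes and 1 of 5 G1 genes were higher in Ly49G+, and 1 G1 gene was higher in Ly49I+. Over all genes the shares called by that fit were 5.69% with Ly49G+ higher and 5.96% with Ly49I+ higher. The labels do not state that libraries of the same number are pairs, so calls with the block rest on an assumption. The median log2 difference was 0.36 over the mitosis genes, 0.12 over the S phase genes, -0.12 over the G1 genes and -0.02 over all genes, and another scaling of the libraries turned none of the class medians. Levels of the groups did not overlap, with Ly49G+ higher, in 17 of 25 mitosis genes and 4 of 18 S phase genes, where 12.5% of all genes were so arranged. With Ly49I+ higher they did not overlap in 0 of 25, 0 of 18 and 3 of 5 G1 genes, against 13.4% of all genes. The difference between mitosis and S phase genes was not tested.

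**Figure D2:**
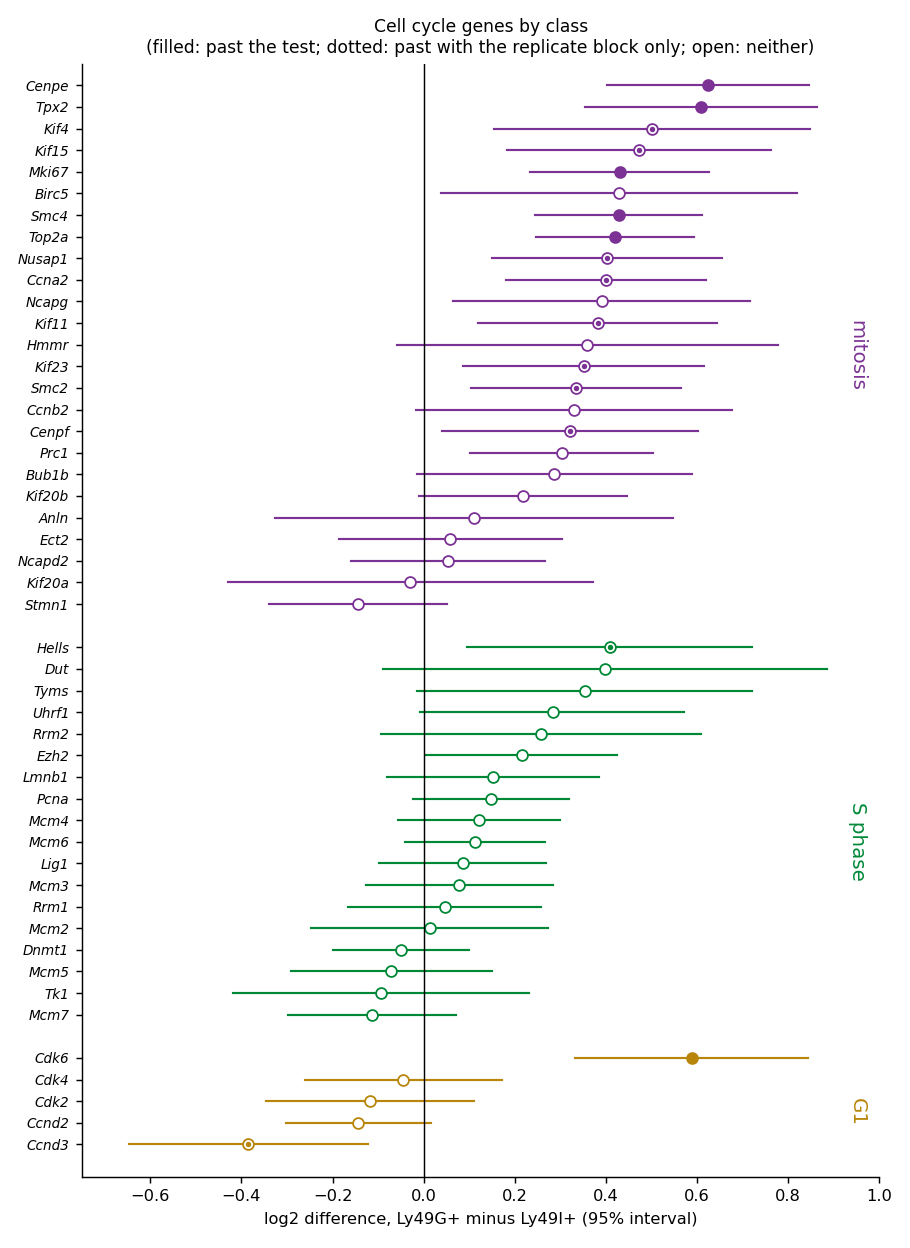
Log2 difference of Ly49G+ minus Ly49I+ (horizontal axis) with its unadjusted 95% interval for each of the 48 measured genes, by class and in order of size. Filled points passed the test, and dotted points passed only with the replicate block. Right of 0 lay 23 of 25 mitosis genes and 14 of 18 S phase genes, against 46.5% of all genes.

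**Figure D3:**
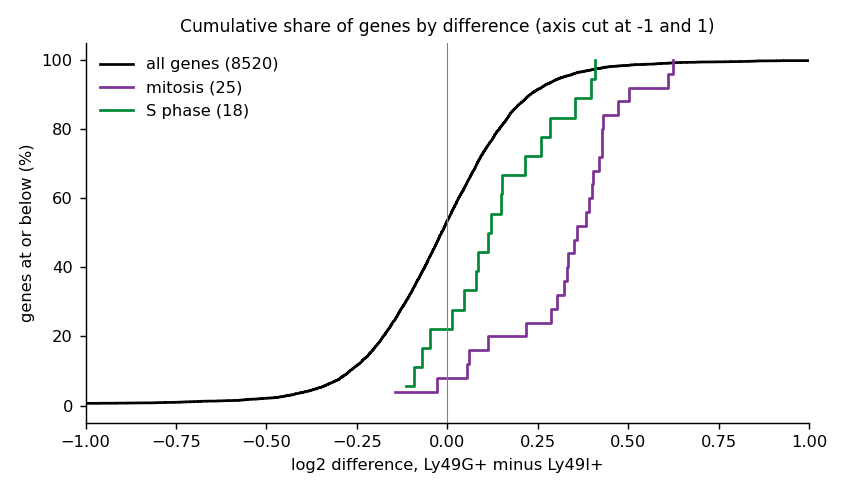
Cumulative percentage of genes (vertical axis) at or below each log2 difference of Ly49G+ minus Ly49I+ (horizontal axis, shown from -1 to 1), for all 8520 genes, 25 mitosis genes and 18 S phase genes. The curves cross the middle of the vertical axis at -0.02 for all genes, 0.12 for S phase and 0.36 for mitosis.

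The table lists only genes that reached 10 CPM in at least 2 libraries. The 10 genes outside it were Cdk1, Ccnb1, Aurka, Aurkb, Plk1, Bub1, Cdc20, Ube2c, Cenpa and Gins2, and nothing is said of them. The mitosis genes Ccnb2, Birc5 and Kif4 and the S phase genes Tyms and Dut reached that floor in at least 2 libraries only in Ly49G+. A difference was thus built into their listing, though Ly49I+ replicate 2 was also above 10 CPM for Ccnb2, Birc5 and Kif4. Kif20a reached the floor in at least 2 libraries only in Ly49I+, with Ly49G+ replicate 3 also above 10 CPM. Of the 21 mitosis genes that reached it in both groups, 15 had Ly49G+ levels that did not overlap, with a median difference of 0.36. The 16 such S phase genes had 3 and a median of 0.10.

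Genes that shape chromosomes held 3 of the 5 mitosis calls, though their median log2 difference, 0.405, was near the 0.403 of the spindle genes. The 3 called, Mki67, Top2a and Smc4, had the highest CPM of the mitosis genes, a level not scaled by gene length. Mki67 encodes Ki-67, which coats mitotic chromosomes and is the usual marker of cycling cells (gene 17345, GRCm38.p6 chromosome 7, 135689784 to 135716450). In replicates 1, 2 and 3, the order used throughout, its level was 443.9, 455.4 and 403.9 CPM in Ly49G+ cells and 348.1, 334.4 and 286.5 CPM in Ly49I+ cells. All Ly49G+ libraries were above all Ly49I+ libraries, with a log2 difference of 0.43 ± 0.09 (SE, 3 libraries per group, adjusted p = 0.0241).

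Top2a, the topoisomerase that untangles copied chromosomes (gene 21973, chromosome 11, 98992947 to 99024199), stood at 172.1, 168.0 and 155.5 CPM in Ly49G+ and 128.0, 128.3 and 114.4 in Ly49I+. The groups were apart, by 0.42 ± 0.08 on the log2 scale (adjusted p = 0.0157). Smc4 is a core ATPase of condensin, the complex that compacts chromosomes (gene 70099, chromosome 3, 69004738 to 69034623), and was at 325.9, 322.6 and 300.9 CPM in Ly49G+ and 261.2, 226.5 and 219.8 in Ly49I+. Its difference was 0.43 ± 0.08 (adjusted p = 0.0174).

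Smc2, the partner of Smc4, was at 128.5, 113.9 and 105.3 CPM in Ly49G+ and 104.6, 86.25 and 85.14 in Ly49I+. In both populations replicate 1 was highest and replicate 3 lowest, and the highest Ly49I+ library lay just under the lowest Ly49G+ library. The difference of 0.33 ± 0.10 did not pass (adjusted p = 0.111) but did with the block (0.00876). Of the other condensin genes, Ncapg differed by 0.39 ± 0.15 and Ncapd2 by 0.05 ± 0.10 (adjusted p = 0.184 and 0.777).

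At the centromere, Cenpe showed the largest difference of the 48 genes. It encodes the kinetochore motor that pulls chromosomes to the spindle equator (gene 229841, chromosome 3, 135212563 to 135273540) and was at 38.39, 43.26 and 35.81 CPM in Ly49G+ and 26.13, 24.50 and 25.35 in Ly49I+. The Ly49I+ libraries were nearly level and all below Ly49G+, with a log2 difference of 0.62 ± 0.10 (adjusted p = 0.00716). Cenpf, another kinetochore protein, was at 42.35, 34.88 and 33.13 CPM against 33.32, 29.30 and 25.71. The groups overlapped by a narrow margin, replicate 1 was highest in both, and the difference of 0.32 ± 0.13 passed with the block alone (adjusted p = 0.204, and 0.0404 with the block). Birc5, which encodes survivin of the chromosomal passenger complex, differed by 0.43 ± 0.18 with overlapping groups (adjusted p = 0.22).

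Of the spindle genes, Tpx2 passed. Its protein starts microtubules around chromosomes and activates Aurora A (gene 72119, chromosome 2, 152847964 to 152895321). The levels were 44.82, 55.25 and 47.07 CPM in Ly49G+ and 33.98, 34.51 and 27.99 in Ly49I+, again without overlap (0.61 ± 0.11, adjusted p = 0.0161). The kinesin gene Kif15 was at 26.91, 25.60 and 20.02 CPM against 16.75, 17.49 and 17.63 (0.47 ± 0.13). Kif11, the motor that pushes spindle poles apart, was at 47.56, 49.77 and 37.18 against 36.26, 32.08 and 34.17 (0.38 ± 0.12). In both genes Ly49G+ replicate 3 lay nearest to the Ly49I+ libraries.

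The chromosome-bound kinesin gene Kif4 was at 12.71, 15.78 and 12.89 CPM in Ly49G+ and 9.817, 10.61 and 8.740 in Ly49I+ (0.50 ± 0.16). Nusap1, which bundles spindle microtubules, was at 33.24, 30.78 and 27.53 against 23.94, 24.65 and 20.66 (0.40 ± 0.11). Adjusted p-values for Kif15, Kif11, Kif4 and Nusap1 were 0.0804, 0.11, 0.112 and 0.0852, and 0.0273, 0.0302, 0.0457 and 0.0212 with the block. Hmmr, a spindle assembly factor, differed by 0.36 ± 0.19 (adjusted p = 0.312). Stmn1 stood apart from the other spindle genes, with a difference of -0.14 ± 0.09 and overlapping groups (adjusted p = 0.375), and its protein takes microtubules apart.

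Of the mitotic kinases and cyclins, 8 of 11 lay outside the table. Ccna2, the A cyclin that serves S phase and entry into mitosis, was at 32.14, 38.03 and 35.41 CPM in Ly49G+ and 26.01, 27.95 and 25.86 in Ly49I+. The groups did not overlap and the difference of 0.40 ± 0.10 just missed the threshold (adjusted p = 0.0539). It passed with the block (0.0173), with the libraries centred on a shared median (0.0401) and after quantile normalization (0.0391). The B cyclin gene Ccnb2 differed by 0.33 ± 0.16 and the spindle checkpoint kinase gene Bub1b by 0.29 ± 0.14, each without overlap (adjusted p = 0.268 and 0.269).

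Cytokinesis, the final cut between daughter cells, had no call among 6 genes. The largest difference was in Kif23, a motor of the central spindle, at 26.01, 28.32 and 23.83 CPM in Ly49G+ and 21.42, 21.91 and 18.02 in Ly49I+ (0.35 ± 0.12, adjusted p = 0.144, and 0.0479 with the block). Prc1, which crosslinks the central spindle, differed by 0.30 ± 0.09 without overlap (adjusted p = 0.101, and 0.0501 with the block). Kif20b (0.22 ± 0.10), Anln (0.11 ± 0.20), Ect2 (0.06 ± 0.11) and Kif20a (-0.03 ± 0.18) overlapped between the groups. Ect2 and Anln encode the activator of RhoA at the cleavage furrow and the furrow scaffold anillin. Their 95% intervals ran from -0.19 to 0.30 and from -0.33 to 0.55, so a difference as large as that of Top2a was within the interval of Anln and outside that of Ect2.

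**Figure D4:**
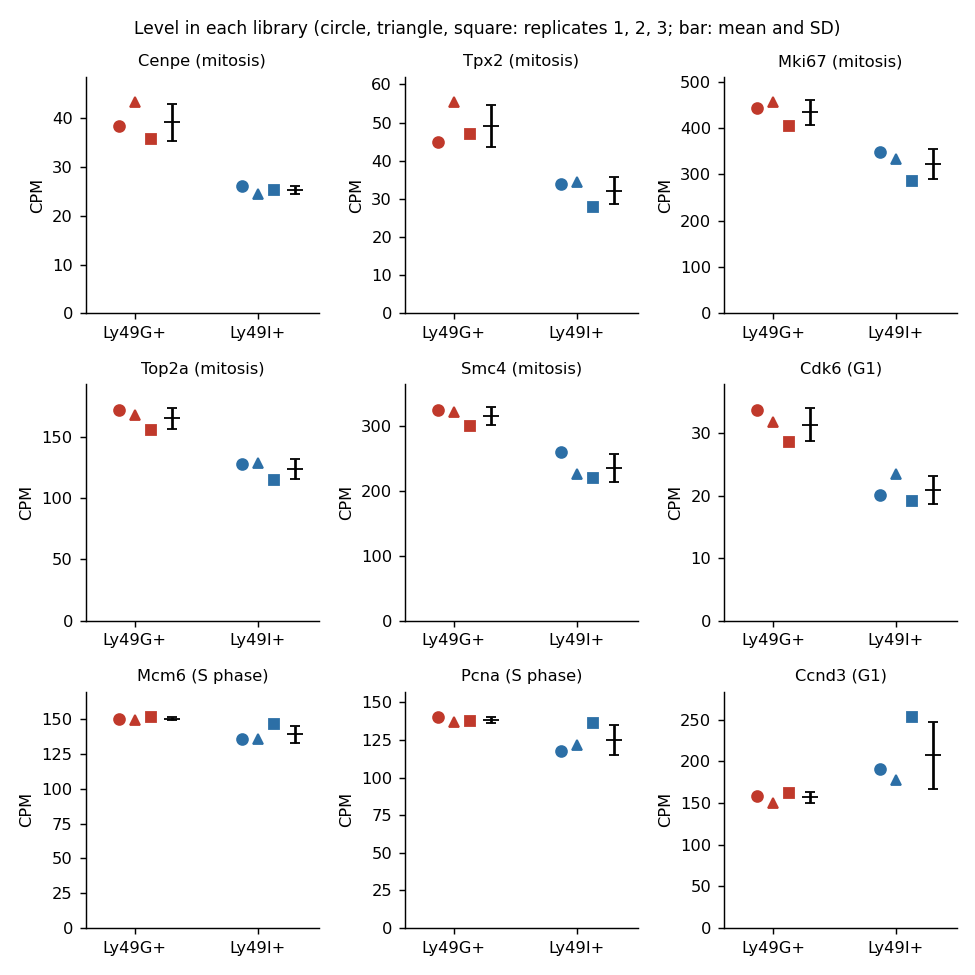
CPM (vertical axes, from 0) of 9 genes in each library of Ly49G+ (red) and Ly49I+ (blue), with symbols for replicates 1, 2 and 3 and the mean and SD of 3 libraries in black. Cenpe, Tpx2, Mki67, Top2a, Smc4 and Cdk6 were higher in all Ly49G+ libraries, Mcm6 and Pcna nearly met between groups, and Ccnd3 was higher in Ly49I+, most in replicate 3.

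Of the replication genes, the MCM set encodes the 6 subunits of the ring that unwinds DNA, and its differences lay between -0.11 (Mcm7) and 0.12 (Mcm4) on the log2 scale. Mcm4 had the largest difference, with 146.9, 155.8 and 146.6 CPM in Ly49G+ and 134.5, 128.6 and 150.7 in Ly49I+ (0.12 ± 0.08, adjusted p = 0.409). Ly49I+ replicate 3 lay above 2 of the 3 Ly49G+ libraries. Mcm6 was at 150.2, 149.5 and 151.7 CPM against 135.5, 135.7 and 146.4, close together without overlap, with an interval of -0.04 to 0.27. Mcm2, Mcm5 and Mcm7 were highest in Ly49I+ replicate 3, the library in which 15 of 25 mitosis genes were lowest. That library was often extreme, highest for 2366 and lowest for 2075 of all 8520 genes.

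Pcna, the sliding clamp of the replication fork, was at 140.3, 137.2 and 137.3 CPM in Ly49G+ and 117.7, 121.3 and 136.3 in Ly49I+ (0.15 ± 0.08, adjusted p = 0.312). The DNA ligase gene Lig1 differed by 0.09 ± 0.08 and the gene of the large ribonucleotide reductase subunit, Rrm1, by 0.05 ± 0.10, both with overlap. Among genes of nucleotide supply, Dut, which clears dUTP, was at 11.34, 12.93 and 7.773 CPM in Ly49G+ and 8.229, 6.725 and 8.996 in Ly49I+. Ly49G+ replicate 3 fell among the Ly49I+ libraries, and the difference of 0.40 ± 0.22 had the widest interval of the 48 genes, from -0.09 to 0.89. The thymidylate synthase gene Tyms (0.35 ± 0.17), Rrm2 (0.26 ± 0.16) and the thymidine kinase gene Tk1 (-0.09 ± 0.15) did not pass (adjusted p = 0.266, 0.375 and 0.744).

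Among chromatin genes Hells, a remodelling helicase needed for DNA methylation, was at 42.17, 41.74 and 34.34 CPM in Ly49G+ and 35.05, 30.47 and 24.20 in Ly49I+. In both populations replicate 3 was lowest, and the groups overlapped narrowly. The difference of 0.41 ± 0.14 did not pass (adjusted p = 0.149) but did with the block (0.0146). The Polycomb methyltransferase gene Ezh2 (0.22 ± 0.09), Uhrf1 (0.28 ± 0.13), which guides Dnmt1 to copied DNA, and the lamin gene Lmnb1 (0.15 ± 0.10) did not pass. Dnmt1, the maintenance DNA methyltransferase, differed by -0.05 ± 0.07 with an interval of -0.20 to 0.10. Over the 18 S phase genes adjusted p ran from 0.149 to 0.963. The upper bound of the 95% interval was under 0.36, the mitosis median, in 11 of them, and the other 7 intervals reached it.

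The G1 genes went both ways. Cdk6, a kinase partner of the D cyclins (gene 12571, chromosome 5, 3341004 to 3531008), was at 33.81, 31.83 and 28.63 CPM in Ly49G+ and 20.15, 23.48 and 19.15 in Ly49I+. The groups were well apart, by 0.59 ± 0.12 (adjusted p = 0.0191). Its relative Cdk4 differed by -0.04 ± 0.10 with an interval of -0.26 to 0.17, and Cdk2, which acts at the entry to S phase, differed by -0.12 ± 0.10 (adjusted p = 0.536).

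The differences of the D cyclins lay below 0, and none passed without the block. Ccnd1, kept with the other cyclins and outside the 48, differed by -0.31 ± 0.18 with overlapping groups (adjusted p = 0.335). Ccnd3 was at 158.3, 149.9 and 162.5 CPM in Ly49G+ and 190.3, 177.9 and 253.3 in Ly49I+. All Ly49I+ libraries were above Ly49G+, replicate 3 far above the other 2, and the difference of -0.38 ± 0.12 passed with the block alone (adjusted p = 0.108, and 0.0086 with the block). Ccnd2 was at 671.9, 692.3 and 649.0 CPM against 789.0, 720.3 and 717.1, also without overlap (-0.14 ± 0.07, adjusted p = 0.29, and 0.163 with the block). Per kilobase of GENCODE exons, averaged over all libraries, Ccnd2 had the highest level of the 48 genes, at 105.3 CPM, and Ccnd3 was at 74.39. Smc4 stood at 63.98 on that scale, Stmn1 at 41.86, Mki67 at 37.64, Top2a at 27.65 and Cenpe at 4.08. Kif4 and Cdk6 were lowest at 2.36 and 2.27. The authors' gene models are not given, so these levels per length are approximate.

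Summed over the 25 mitosis genes, the level was 1707, 1744 and 1572 CPM in Ly49G+ cells against 1380, 1328 and 1210 CPM in Ly49I+ cells. Over the 18 S phase genes it was 1545, 1599 and 1562 against 1480, 1483 and 1576. The mitosis sums were apart, at 1674 ± 90.5 and 1306 ± 87.1 (SD, n = 3). The S phase sum of Ly49I+ replicate 3 lay above Ly49G+ replicates 1 and 3. The largest parts of the mitosis sums were the called genes Mki67, Smc4 and Top2a. Their means were 434.4, 316.5 and 165.2 CPM in Ly49G+ and 323.0, 235.8 and 123.6 in Ly49I+. Dnmt1 was the largest part of the S phase sums, at 536.1 and 554.8 CPM, so the sums weigh a few genes most. Singly, 14 of 25 mitosis genes were highest in Ly49G+ replicate 2, and 15 were lowest in Ly49I+ replicate 3. Of all 8520 genes, 1669 were highest in Ly49G+ replicate 2. Ly49I+ replicate 3 was lowest for 2075 of them and highest for 2366.

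**Figure D5:**
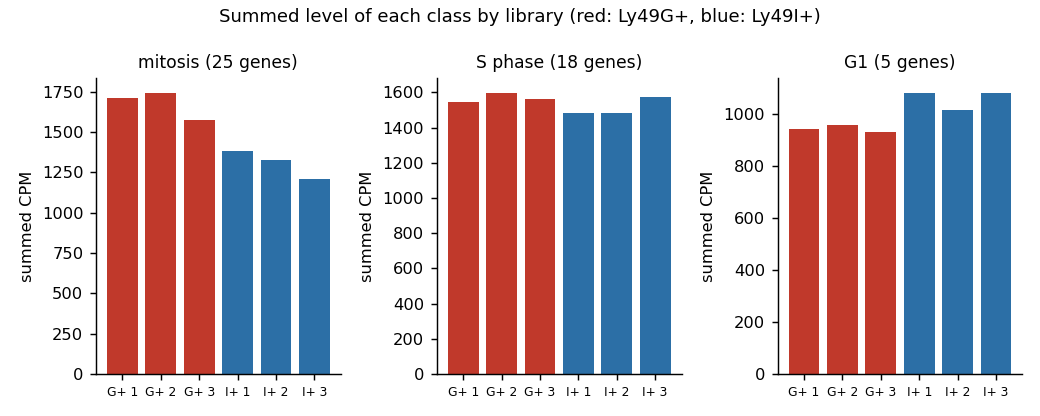
Summed CPM (vertical axes, from 0) of the 25 mitosis, 18 S phase and 5 G1 genes in each of the 6 libraries, Ly49G+ in red and Ly49I+ in blue. Mitosis sums were 1572 to 1744 in Ly49G+ and 1210 to 1380 in Ly49I+, S phase sums overlapped, and G1 sums, mostly Ccnd2, were higher in Ly49I+. Mki67, Smc4 and Top2a were the largest parts of the mitosis sums and Dnmt1 of the S phase sums.

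With Ly49G+ replicate 2 left out, 0 of the 6 genes passed, and over all genes 94 passed in place of 306. Adjusted p was then 0.054 for Cenpe, 0.11 for Tpx2, 0.16 for Mki67, 0.11 for Top2a, 0.126 for Smc4 and 0.119 for Cdk6, and their differences were 0.40 to 0.58. Without Ly49G+ replicate 1 only Cenpe and Tpx2 passed, and Mki67 (0.114), Top2a (0.0838), Smc4 (0.0913) and Cdk6 (0.0972) did not. Without Ly49I+ replicate 2, Mki67 (0.0514) and Smc4 (0.0673) did not pass, nor did they without the intensity trend (0.0691 and 0.0551). Tpx2 did not pass without Ly49G+ replicate 3 (0.0523). The difference of each of the 6 stayed above 0 in these fits, which was fixed in advance. Their groups did not overlap, so leaving out a library could not turn a difference, and the trend does not enter it.

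Other cell cycle genes were read from lists by role, 184 of 259 measured. Of the 184, 181 did not pass and the other 3 had Ly49G+ higher, a share of 1.63% that is no more than the 1.82% of all genes. With the block 19 had Ly49G+ higher (10.3%, against 5.69% of all genes) and 4 had Ly49I+ higher (2.17%, against 5.96%). All 3 calls without the block belonged to the list of E2F, RB, DREAM complex, MYB and MYC factors, with 21 measured. Myb, a transcription factor of progenitors and dividing lymphoid cells, was at 92.71, 113.0 and 107.0 CPM in Ly49G+ and 54.54, 61.06 and 56.21 in Ly49I+. It differed by 0.86 ± 0.09 (adjusted p = 0.000977), more than any of the 48 genes. Tfdp1, the partner that E2F factors need to bind DNA, differed by 0.40 ± 0.08 (adjusted p = 0.0226), and Myc, which drives growth and G1 progress, by 0.53 ± 0.13 (adjusted p = 0.0442).

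Myb passed in all settings tried, Tfdp1 lost its call without any 1 of the Ly49G+ libraries or Ly49I+ replicate 2, and Myc did so under 7 settings, among them voom weights (0.0528). The lists for origin licensing and replication (37 measured), CDK inhibitors and antiproliferative factors (12), other cyclins and kinases (19), the anaphase promoting complex (19), cohesin and condensin (19), the centromere and spindle (37) and histones with related chromatin proteins (20) had no call. Their median differences were 0.06, -0.04, 0.12, 0.01, 0.18, 0.11 and 0.01. With the block, 2, 0, 3, 1, 3, 4 and 2 of them were higher in Ly49G+ and 0, 2, 0, 1, 0, 0 and 1 higher in Ly49I+. Histone genes are near-identical copies, and how the authors' counting split their reads is not given, so their single levels are uncertain.

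Markers of NK maturation also differed between the groups, and those of other cells varied by list. All 15 NK markers were measured, 1 called with Ly49G+ higher and 4 with Ly49I+ higher, with sums of 14980 to 15290 CPM in Ly49G+ and 15900 to 16530 in Ly49I+. Immature stage markers were called higher in Ly49G+ in 14 of 19 and mature stage markers higher in Ly49I+ in 15 of 20. Over all genes 1.82% were called with Ly49G+ higher and 1.77% with Ly49I+ higher. Immature stage sums were 5984 to 6717 CPM in Ly49G+ against 4513 to 5449 in Ly49I+. Mature stage sums were 9303 to 9396 against 12000 to 12820. All marker lists were chosen with earlier results of these data known, so their counts are not an independent test. T cell markers, 10 of 17 measured, summed to 656.2 to 729.8 CPM in Ly49G+ and 552.7 to 603.8 in Ly49I+. The highest sum was in Ly49G+ replicate 2, and 5 of the markers were called with Ly49G+ higher (6 with the block). Their log2 differences ran from -0.124 to 3.777 with a median of 0.525, 7 above 0 and 3 below. In Ly49G+ replicate 2, 8 of the 10 were highest. Cd4 and Cd8a were outside the table. Monocyte and macrophage markers, 12 of 23 measured, summed to 1131 to 1175 CPM in Ly49G+ and 968.9 to 2112 in Ly49I+, highest in replicate 2. That sum is mostly Ccr2 in Ly49G+, at 1004 to 1056 CPM against 625.1 to 717.6, the 1 marker of the list called with Ly49G+ higher. In the list 11 of 12 had a negative difference and 8 were called with Ly49I+ higher, with a median log2 difference of -3.87, and the mean log2 CPM over its genes was 2.15 to 3.25 in Ly49G+ and 5.05 to 6.91 in Ly49I+. B cell and plasma cell markers, 4 of 16 measured, summed to 312.5 to 437 and 197.9 to 441.6 CPM, with 1 called with Ly49G+ higher (2 with the block). The 12 neutrophil markers were all outside the table. Dendritic cell markers, 4 of 13 measured, summed to 1303 to 1465 and 1118 to 1353 CPM with no call, and erythroid markers, 2 of 13 measured, to 141.4 to 175.5 and 122.0 to 135.4 CPM. Their part in the cell cycle differences was not tested. Library totals were 33599679 to 40892154 reads, and the fewest reads of any of the 48 genes in a library were 274, a counting error of 6.04%.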

How the data were processed

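RNA of 6 libraries, 3 per population, had been sequenced as pairs of 100-base reads from strand-specific libraries of 0.4 µg total RNA, per the labels' protocols. The tools were STAR 2.3.0, CASAVA 1.8.2 and limma, on the mm10 build, per the submitters' processing notes. The sources used here name no counter, annotation or gene filter. Values were deposited by the authors as log2 CPM for 8520 genes, with 0.5 added to each count and 1 to the library total, as the values show: solving for reads gave whole numbers within 0.001 for 100% of values. Gene numbers were matched to RefSeq symbols of GRCm38.p6 (mm10) for 8429 genes.

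The test was limma 3.58.1 (R 4.3.3) on the deposited log2 values of all genes and 6 libraries, with an intensity trend, two-sided, Ly49G+ minus Ly49I+, Benjamini-Hochberg adjusted at 0.05, and it was checked on simulated data. CPM per library, SDs and sums come from the recovered reads, using Python 3.11.15, numpy 2.4.6, pandas 2.3.3 and matplotlib 3.10.9. Replicate numbers were taken as pairs, which the labels do not state. Deviations from the group means of same-numbered libraries correlated across genes at 0.37, 0.11 and 0.16. Those of Ly49G+ replicate 3 with Ly49I+ replicate 2 (0.36) and Ly49G+ replicate 2 with Ly49I+ replicate 1 (0.12) did so as well. The correlations therefore do not single out same-numbered pairs. The genes and lists were chosen with earlier results of these data known. Values by library are given for genes past the test with or without the block and for the largest difference in each role, and the 4 printed promoters and the values by library of Ccnd2 and Mcm6 were chosen after values were seen. Ezh2 and Lmnb1 were put with S phase by convention. Alternatives were a shared median, quantile normalization, no trend, a robust prior, voom weights on recovered reads, a minimum mean of 4, the block, and each library left out.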

Additional observations from a re-analysis of the deposited data

How the results depend on the processing

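Under up to 13 alternatives each, the 22 genes followed singly kept their direction in all fits, with 26 calls lost and 16 gained. The block, no trend, a robust prior and a minimum mean of 4 leave a gene's difference unchanged, so direction could not turn under them. The genes were chosen for a call with or without the block or for the largest difference in their role. The gained calls include the block calls by which genes were chosen. The median differences of the mitosis (0.316 to 0.414), S phase (0.091 to 0.151) and G1 genes (-0.133 to -0.071) kept their sign. With the replicate block 993 genes were called in place of 306, with 16 of 48 cell cycle genes in place of 6, 13 mitosis genes in place of 5, 1 S phase gene in place of 0, 2 G1 genes in place of 1 and 23 other cell cycle genes in place of 3. Without the intensity trend 4 of the 48 and 3 mitosis genes were called. Of the other cell cycle genes, 8 were called with libraries centred on a shared median, 7 after quantile normalization, 5 with a robust prior, and 2 with either voom weights or a minimum mean of 4. Leaving out 1 library in turn gave 94 to 644 calls over all genes, 0 to 8 of the 48, 0 to 6 mitosis genes, 0 to 1 S phase genes, 0 to 1 G1 genes and 1 to 19 other cell cycle genes. The low ends for the 48 and the mitosis genes came without Ly49G+ replicate 2, and the high ends for all genes and the other cell cycle genes without Ly49I+ replicate 1; these fits use fewer samples, and the cause was not tested beyond that. The fewest reads of a gene in a library were 274, for Kif20a, so counting error adds to the spread of the lowest genes.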
